A study of Mus musculus with 27 samples.

Results

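The 10 genes described here encode 8 nuclear receptors and 2 coactivators that govern lipid, drug and energy metabolism in the liver. They were taken by symbol from the 54532 genes of a table of mouse liver RNA sequencing: Ppara, Ppard, Pparg, Rxra, Nr1h3, Nr1i2, Nr1i3, Thrb, Ppargc1a and Ppargc1b. The 27 libraries came from livers of wild-type C57/BL6J mice. Etomoxir, which irreversibly blocks CPT1 and so the import of long-chain fatty acids into mitochondria, was given intraperitoneally at 12.5 mg/kg 4 h before removal of 70% of the liver. Those livers were taken 24 h (PHx24_ETO, n = 4) or 48 h (PHx48_ETO, n = 4) after resection, the 48 h mice with a second dose 24 h after surgery. Livers without etomoxir were taken 24 h (PHx24, n = 7) and 48 h (PHx48, n = 7) after the same resection, or after sham operation (sham, n = 5). The labels tie no time to the sham livers and no vehicle to the mice without etomoxir. Nor do they say that every library comes from its own mouse, and p-values here refer to the variation among libraries.

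Nuclear receptors are transcription factors whose activity is set by small lipophilic ligands. PPARA, PPARD, PPARG, LXRα (Nr1h3), PXR (Nr1i2), CAR (Nr1i3) and TRβ (Thrb) bind DNA as heterodimers with an RXR, of which RXRα (Rxra) is the main form in hepatocytes. In the liver PPARA drives fatty acid oxidation and ketogenesis during fasting, LXRα responds to oxysterols and drives lipogenesis, PXR and CAR induce enzymes of drug metabolism, and TRβ mediates most actions of thyroid hormone. PGC1α (Ppargc1a) and PGC1β (Ppargc1b) are coactivators recruited by several of these receptors.

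Promoters of 3 members are shown because Nr1i2 and Nr1i3 gave the calls with the smallest adjusted p in opposite directions, at 24 h against sham and at 48 h against 24 h, and Rxra had the highest level of the 10 genes. Each sequence is the 250 bases before the RefSeq start (GRCm38.p6), written 5′ to 3′ on the gene's strand, with motif matches in capitals. The motifs searched, on both strands, were AGGTCA, the hexamer recognised by nuclear receptors (in 14% of 32851 windows of the same length over all genes), the E-box CACGTG (6.02%), the GC box GGGCGG (32.7%) and the CCAAT box CCAAT (33.8%). The capitals mark 1 E-box in Nr1i3 (chr1:171213720-171213969, plus strand), 3 GC boxes in Rxra (chr2:27676951-27677200, plus strand) and 1 CCAAT box in Nr1i2 (chr16:38294825-38295074, minus strand). None of the 3 windows held AGGTCA, and GC content was 53.2% for Nr1i3, 81.2% for Rxra and 44% for Nr1i2.
Nr1i3: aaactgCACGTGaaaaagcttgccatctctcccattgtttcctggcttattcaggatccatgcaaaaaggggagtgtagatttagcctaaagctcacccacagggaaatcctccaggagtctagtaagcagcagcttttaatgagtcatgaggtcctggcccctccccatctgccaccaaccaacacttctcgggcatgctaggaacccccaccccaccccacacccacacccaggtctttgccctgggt
Rxra: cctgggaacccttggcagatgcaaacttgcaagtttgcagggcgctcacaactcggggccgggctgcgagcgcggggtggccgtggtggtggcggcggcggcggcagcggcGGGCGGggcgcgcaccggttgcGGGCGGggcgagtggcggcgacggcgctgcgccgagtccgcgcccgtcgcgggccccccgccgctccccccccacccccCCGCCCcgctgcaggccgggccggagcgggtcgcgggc
Nr1i2: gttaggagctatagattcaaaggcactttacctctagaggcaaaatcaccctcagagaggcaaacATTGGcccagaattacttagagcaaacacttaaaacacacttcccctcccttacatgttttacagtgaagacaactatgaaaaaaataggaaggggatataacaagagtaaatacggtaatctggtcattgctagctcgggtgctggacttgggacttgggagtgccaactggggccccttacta

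Levels are the authors' FPKM, which are read counts per gene length and per library size and can be compared between genes. The libraries held 14903757 to 18446372 counts. Markers of hepatocytes summed to 23608 FPKM or more in each library. The sums were 29367 to 64945 FPKM in sham, 23608 to 31863 in PHx24 and 28456 to 40639 in PHx48 livers. Sinusoidal endothelial markers summed to 37.1 to 47.3 FPKM in sham, 27.5 to 34 in PHx24 and 18.6 to 33.8 in PHx48 livers. Sums of the other liver cell types overlapped between sham and these groups. The part of such shifts in the member differences was not tested. The largest marker sums of other tissues were in 4 libraries, called the 4 libraries with other tissues below. Skeletal muscle markers summed to 4530 FPKM in sham 1, 1757 in PHx24 1 and 534 in PHx48 3, and exocrine pancreas markers to 815 FPKM in sham 2. Without those 4 libraries every member call given below kept its direction and stayed under an adjusted p of 0.05. Smaller amounts stayed in that check, such as 81.3 FPKM of skeletal muscle markers in PHx48_ETO 4 and 40.1 FPKM of adipocyte markers in sham 3. Differences were tested on the counts with edgeR's quasi-likelihood test over 12376 genes, and a call is an adjusted p under 0.05. Ppargc1b missed the filter of 1 FPKM in 4 libraries and is given from a filter of 10 counts, which leaves 9 of the 10 genes in the counts of members called. In whole liver RNA, fewer cells of a type and less RNA per cell cannot be told apart.

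Rxra was the highest of the 10 genes by mean FPKM in every group, followed by Nr1h3 and Nr1i2 and then Ppara. In sham livers the means were 79.3 ± 16.4 FPKM for Rxra, 48.8 for Nr1h3, 29 ± 7.76 for Nr1i2 and 17.2 ± 6.42 for Ppara (SD, n = 5). Nr1i3 at 7.47 ± 1.52, Thrb at 4.55 ± 0.903, Ppard at 3 ± 1.64 and Pparg at 2.66 ± 0.727 FPKM came next, and the libraries of neighbouring genes in this stretch overlapped. The coactivators closed the order at 1.09 FPKM for Ppargc1a and 0.883 FPKM for Ppargc1b. In PHx24_ETO and PHx24 livers Nr1i2 stood second, ahead of Nr1h3, and the libraries of this pair overlapped in both groups. In PHx48 livers Ppard came right after Ppara with 4.52 FPKM, just above Nr1i3 with 4.41 FPKM, again with overlapping libraries. The place of Nr1i3 in these orders is uncertain, since 3304 of its 4414 exon bases are shared with Tomm40l on the opposite strand.

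**Figure D1:**
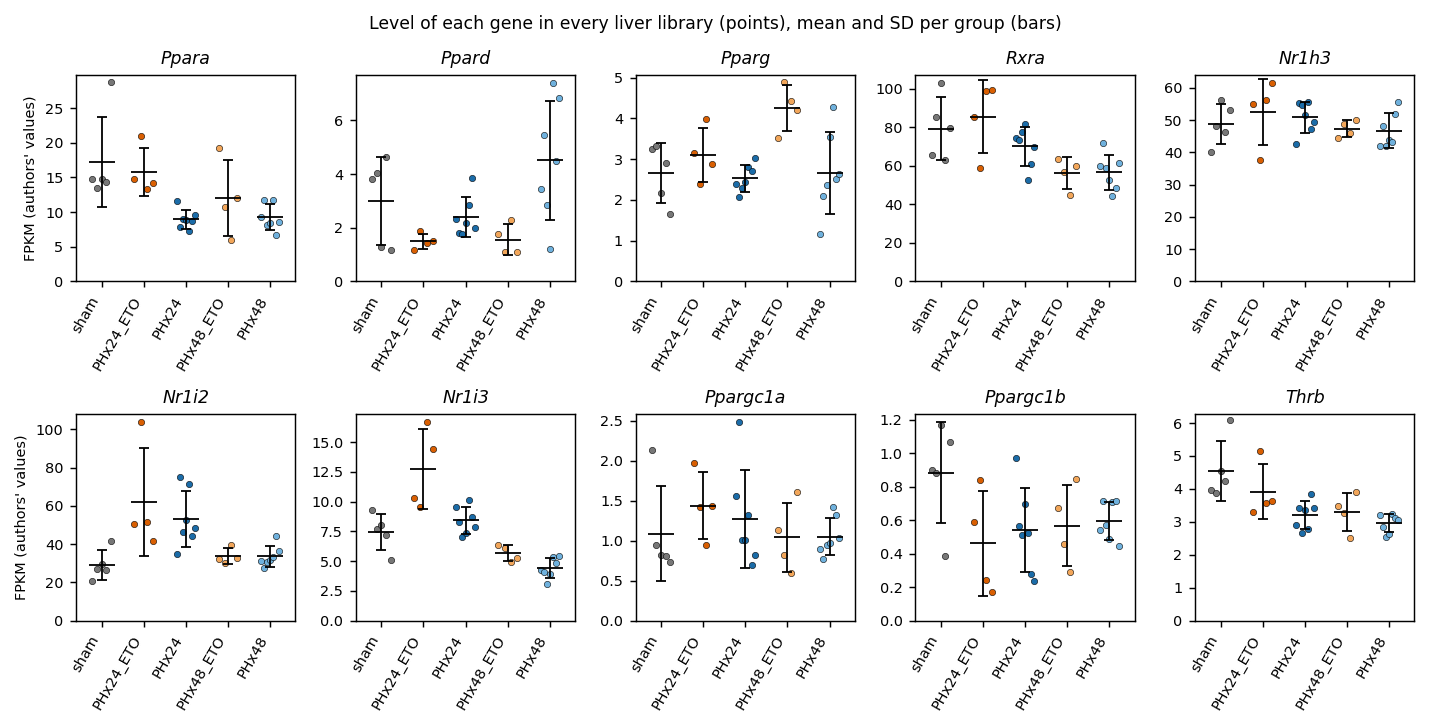
Level of each of the 10 genes in FPKM (vertical axes, separate scales) in the 27 liver libraries (points), with the mean and SD of each group (bars): sham n = 5, PHx24_ETO n = 4, PHx24 n = 7, PHx48_ETO n = 4 and PHx48 n = 7. Ppara in the 7 PHx24 livers lies at 7.31 to 11.6 FPKM, below all 5 sham livers, and Nr1i3 in the 7 PHx48 livers at 3.09 to 5.39 FPKM, below all 7 PHx24 livers.

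Resection was followed at 24 h by 1 higher member (Nr1i2) and 2 lower members (Ppara and Thrb) among the 9 tested. Of all genes tested, 35.0% were called between PHx24 and sham livers, 19.1% higher and 15.8% lower. At 48 h against sham, 0 members were higher and 4 were lower (Ppara, Rxra, Nr1i3 and Thrb), where 36.5% of all genes were called, 19.5% higher and 17.0% lower. Between 48 h and 24 h, 0 members were higher and 2 were lower (Nr1i2 and Nr1i3), against 11.6% of all genes, 6.19% higher and 5.41% lower. The median log2 fold change over the 9 members was -0.06, -0.06 and -0.13 in these comparisons, and over all genes 0.01, 0.01 and -0.01. The comparisons with sham share the sham livers. All these changes are relative to the typical gene. Scaling to equal totals instead (TPM, tested with limma on log2(TPM + 1)) moved the median gene by 0.19 at 24 h and 0.32 at 48 h against sham and by 0.13 between 48 h and 24 h on the log2 scale, and calls that this scaling ends are named with each gene.

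Ppara, the receptor for fatty acids and fibrate drugs that drives hepatic fatty acid oxidation (gene ENSMUSG00000022383, GRCm38 chr15:85734983-85802819, plus strand), was lower at both times after resection. The sham livers held 14.7, 13.5, 14.8, 14.4 and 28.7 FPKM, the PHx24 livers 7.31 to 11.6 FPKM (median 8.84) and the PHx48 livers 6.74 to 11.8 FPKM (median 8.61). Every resected liver without etomoxir stood below every sham liver, and sham 5 stood far above the other 4. At 24 h the level was 0.531 times that of sham (log2 fold change -0.91, SE 0.214; edgeR adjusted p = 0.00165). At 48 h it was 0.545 times that of sham (log2 fold change -0.87; edgeR adjusted p = 0.00215), and in TPM the 48 h difference was -0.47 with an adjusted p of 0.0858. Groups that do not overlap were seen for 17.7% of all tested genes at 24 h and 19.9% at 48 h against sham.

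With etomoxir at 24 h the Ppara level stood above that of livers without it, just short of the threshold. The PHx24_ETO livers held 14.8, 20.9, 13.3 and 14.2 FPKM, against 7.31 to 11.6 FPKM in PHx24 livers. The groups did not overlap, which held for 3.24% of all tested genes. The mean was 15.8 ± 3.45 FPKM in PHx24_ETO livers (n = 4) and 8.98 ± 1.38 FPKM in PHx24 livers (n = 7), a 1.73-fold difference in 4 of 4 livers that missed the threshold (log2 fold change 0.79, SE 0.227; edgeR adjusted p = 0.0541). It passed with DESeq2 (adjusted p = 0.0193), with limma on log2(FPKM + 0.1) (adjusted p = 0.0477) and without any of 5 single libraries (sham 5, PHx24 1, PHx24_ETO 1, PHx48_ETO 1 or PHx48_ETO 3). Over all 27 edgeR leave-outs the log2 fold change lay between 0.63 and 0.87 and the adjusted p between 0.03 and 0.214. It passed in 2 of 10 other alternatives, over which the adjusted p reached 0.086. The fit on only the groups compared called 0 genes. At 48 h the PHx48_ETO livers spread widely, with 19.3, 10.7, 5.98 and 12 FPKM, and overlapped the PHx48 livers.

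Ppard, the PPAR expressed in most tissues (gene ENSMUSG00000002250, chr17:28232700-28301474, plus strand), was not called by edgeR in any comparison and varied widely between libraries of a group. The sham livers held 3.82, 4.05, 1.29, 4.65 and 1.17 FPKM, the PHx24 livers 1.75 to 3.87 FPKM (median 2.17) and the PHx48 livers 1.2 to 7.39 FPKM (median 4.47). Sham livers thus fell into 3 with 3.82 to 4.65 FPKM and 2 with 1.17 and 1.29 FPKM, and PHx48 4 stood apart from the other 6 PHx48 livers, which held at least 2.83 FPKM. Between 48 h and 24 h the log2 fold change was 0.91 (SE 0.328; edgeR adjusted p = 0.0724), with 6 of 7 PHx48 livers above the PHx24 median. It passed with DESeq2 (adjusted p = 0.0336), without PHx48 4 (0.0202) and without PHx24 6 (0.0431). That is 1 of 10 alternatives and 2 of 27 leave-outs, and the adjusted p reached 0.164 in each set.

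The lowest mean Ppard levels were those of the etomoxir groups. The PHx48_ETO livers held 1.75, 1.09, 2.29 and 1.09 FPKM, all below the PHx48 median, and the mean was 1.55 ± 0.581 FPKM in PHx48_ETO livers (n = 4) and 4.52 ± 2.22 FPKM in PHx48 livers (n = 7). The groups overlapped only through PHx48 4. The log2 fold change of -1.54 (SE 0.409) had an unadjusted p of 0.000894 and missed the threshold over all genes (edgeR adjusted p = 0.172). DESeq2 called it lower (adjusted p = 0.00903), as did edgeR without PHx48 4, the library of the overlap (adjusted p = 0.0481). The difference was thus called in 1 of 10 alternatives and 1 of 27 leave-outs. Its adjusted p reached 0.304 over the alternatives and 0.432 over the edgeR leave-outs. At 24 h the PHx24_ETO livers held 1.18, 1.86, 1.43 and 1.51 FPKM against 1.75 to 3.87 FPKM in PHx24 livers, and the groups overlapped.

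Pparg, the adipogenic PPAR that binds glitazone drugs (gene ENSMUSG00000000440, chr6:115360951-115490399, plus strand), averaged 2.66 FPKM in sham, 2.54 in PHx24 and 2.65 FPKM in PHx48 livers. The group medians were 2.9 FPKM in sham, 2.43 in PHx24 and 2.5 in PHx48 livers, with overlapping ranges. The PHx48_ETO livers held 3.53, 4.89, 4.42 and 4.21 FPKM, against 1.15 to 4.27 FPKM in PHx48 livers. All 4 lay above the PHx48 median of 2.5 FPKM, and PHx48 4 and PHx48 5 reached into their range. The log2 fold change was 0.68 (SE 0.23) with an unadjusted p of 0.0065, and it missed the threshold over all genes (edgeR adjusted p = 0.366). Adipocyte markers, which fat attached to a liver would bring, summed to 2.52 to 5.81 FPKM in PHx48_ETO livers (median 4.74) and 1.82 to 128 FPKM in PHx48 livers (median 3.05), and their part in the Pparg level was not tested.

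The 3 PPAR genes differed in order between groups. Ppara made up 77% of the summed PPAR FPKM in PHx24_ETO livers, 64.5% in PHx24 livers, 64.8% in PHx48_ETO livers and 57.1% in PHx48 livers, and 74% in sham livers. Ppard made up 9.49 ± 5.7% in PHx48_ETO livers (n = 4) and 26.5 ± 9.37% in PHx48 livers (n = 7). Pparg made up 25.7 ± 8.69% in PHx48_ETO livers and 16.4 ± 6.05% in PHx48 livers. Ppard stood above Pparg in 0 of 4 PHx48_ETO livers and 6 of 7 PHx48 livers, in 0 of 4 PHx24_ETO livers and 2 of 7 PHx24 livers, and in 3 of 5 sham livers. These shares restate the levels above and were not tested.

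**Figure D2:**
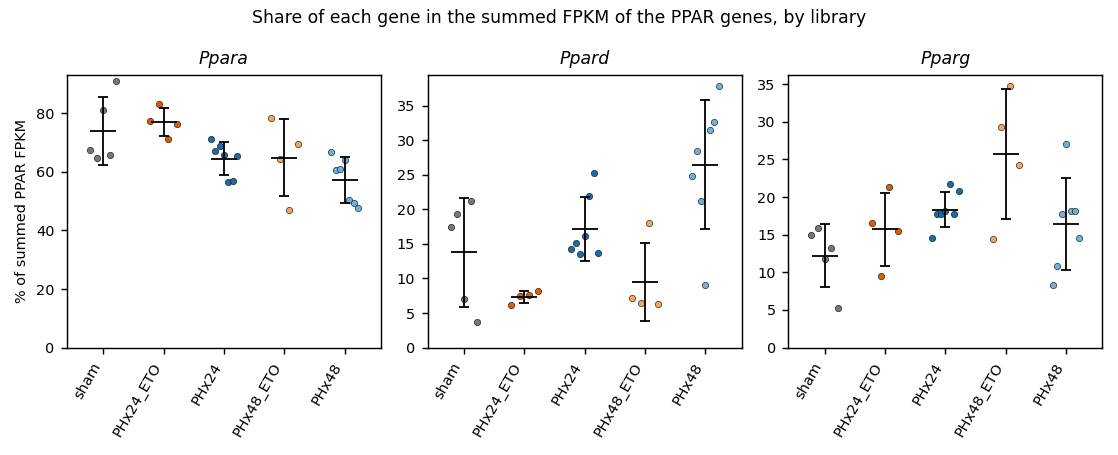
Share of Ppara, Ppard and Pparg in the summed FPKM of the 3 genes (vertical axes, %, separate scales) in each library (points), with the mean and SD of each group (bars). Ppard has 6.3 to 18% in PHx48_ETO livers and 9.13 to 37.8% in PHx48 livers, and Pparg 14.4 to 34.8% in PHx48_ETO livers and 8.27 to 27% in PHx48 livers.

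Rxra, the shared heterodimer partner (gene ENSMUSG00000015846, chr2:27676440-27762957, plus strand), was lower at 48 h than in sham livers. Its GC-rich promoter printed above lies inside this span and overlaps no annotated exon. The sham livers held 65.7, 85.2, 103, 62.8 and 79.3 FPKM, the PHx24 livers 52.5 to 81.7 FPKM (median 73.5) and the PHx48 livers 44.3 to 71.5 FPKM (median 59). The 48 h level was 0.724 times that of sham (log2 fold change -0.47, SE 0.148; edgeR adjusted p = 0.0151), with overlapping groups because PHx48 2 stood above sham 1 and sham 4. The call was lost without sham 3 (adjusted p = 0.0635) and in TPM (log2 fold change -0.10, adjusted p = 0.607). Between 48 h and 24 h the log2 fold change was -0.31 (edgeR adjusted p = 0.15). With etomoxir Rxra held 85.4, 58.8, 98.5 and 99 FPKM in PHx24_ETO livers and 63.5, 56.6, 44.7 and 59.7 FPKM in PHx48_ETO livers, overlapping PHx24 and PHx48 livers, and neither difference was called.

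Nr1h3, which encodes the oxysterol receptor LXRα (gene ENSMUSG00000002108, chr2:91184061-91202834, minus strand), was not called by edgeR in any comparison. It ranged from 37.7 to 61.5 FPKM over the 4 PHx24_ETO livers, 42.6 to 55.6 over PHx24, 44.5 to 50.1 over PHx48_ETO, 42 to 55.6 over PHx48 and 40 to 56.2 over sham. In the 5 comparisons its log2 fold changes lay between -0.13 and 0.08, and their 95% intervals between -0.31 and 0.28. A difference from sham appeared in TPM, where it was called higher at 24 h (0.29, adjusted p = 0.0144) and at 48 h (0.31, adjusted p = 0.0062).

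Nr1i2, which encodes the xenobiotic sensor PXR (gene ENSMUSG00000022809, chr16:38248323-38294824, minus strand), was higher at 24 h and lower again at 48 h. The sham livers held 20.6, 27.2, 29.5, 26.3 and 41.6 FPKM, the PHx24 livers 34.6 to 75 FPKM (median 48.6) and the PHx48 livers 27.4 to 44.2 FPKM (median 31.9). All 7 PHx24 livers stood above the sham median, and sham 5 overlapped them through PHx24 1. The level at 24 h was 1.87 times that of sham (log2 fold change 0.90, SE 0.203; edgeR adjusted p = 0.00112). At 48 h it was 0.629 times that at 24 h (log2 fold change -0.67, SE 0.181; edgeR adjusted p = 0.016), which in TPM was -0.48 with an adjusted p of 0.0741. Etomoxir livers held 50.6, 104, 51.6 and 41.8 FPKM at 24 h and 32.3, 30, 39.8 and 32.6 FPKM at 48 h, and neither difference from the livers without the drug was called. PHx24_ETO 2 stood apart at 104 FPKM, and the sign of the 24 h difference turned without it (log2 fold change -0.17).

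Nr1i3, which encodes CAR, the receptor behind induction by phenobarbital (gene ENSMUSG00000005677, chr1:171213970-171220701, plus strand), was lower at 48 h than at 24 h and than in sham livers. Sham livers held 9.28, 7.72, 8, 7.22 and 5.11 FPKM, PHx24 livers 7 to 10.1 FPKM (median 8.32) and PHx48 livers 3.09 to 5.39 FPKM (median 4.27). The 48 h and 24 h livers did not overlap, which held for 4.92% of all tested genes. At 48 h the level was 0.522 times that at 24 h (log2 fold change -0.94, SE 0.142; edgeR adjusted p = 8.03e-05) and 0.593 times that of sham (log2 fold change -0.75, SE 0.154; edgeR adjusted p = 0.000397). The difference from sham was -0.36 in TPM with an adjusted p of 0.0619. The counts of Nr1i3 are uncertain, since 3304 of its 4414 exon bases (74.9%) are shared with Tomm40l, a mitochondrial import gene on the opposite strand, and the library kit does not mark strand. Tomm40l was itself not called in any of the 5 comparisons, with log2 fold changes of -0.28 to 0.30.

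Nr1i3 was also the only member that edgeR called with etomoxir. Between PHx24_ETO and PHx24 livers 1 member was higher and 0 were lower, where 2.90% of all genes were called, 1.58% higher and 1.33% lower. The PHx24_ETO livers held 10.3, 9.59, 16.7 and 14.4 FPKM, against 7 to 10.1 FPKM in PHx24 livers. All 4 lay above the PHx24 median, and PHx24_ETO 2 reached into the PHx24 range. The level was 1.49 times that of PHx24 (log2 fold change 0.58, SE 0.162; edgeR adjusted p = 0.0494). This call sat at the threshold: it held in 7 of 27 leave-outs, over which the log2 fold change was 0.42 to 0.69 and the adjusted p 0.0156 to 0.207. It was also lost in TPM (0.54, adjusted p = 0.0799), with only the groups compared (adjusted p = 0.122), with a replicate block (0.0656) and with no filter on low values (0.0794). At 48 h the PHx48_ETO livers held 6.33, 6.1, 4.95 and 5.26 FPKM, against 3.09 to 5.39 FPKM in PHx48 livers (log2 fold change 0.36, SE 0.165; edgeR adjusted p = 0.598).

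No member was called between PHx48_ETO and PHx48 livers by edgeR, where 0.210% of all genes were called and 0.0808% were lower. An unadjusted edgeR p under 0.05 was seen for 3 of 9 members (Ppard, Pparg and Nr1i3) and for 1004 of all 12376 genes. DESeq2 called Ppard, among 71 genes. The etomoxir effect at 48 h minus that at 24 h was called for 0 members and 0.0162% of all genes (2 genes). For this difference 0 members and 1064 of all 12376 genes had an unadjusted edgeR p under 0.05. DESeq2 called 43 genes there. The largest such difference among members was that of Ppard, -0.84 with a 95% interval of -1.92 to 0.24 on the log2 scale. An effect called at 24 h and not at 48 h is therefore not shown to differ between the times. Kupffer cell and macrophage markers summed to 60.6 to 89.5 FPKM in PHx24_ETO livers and 87.9 to 165 FPKM in PHx24 livers, with 1 of 8 markers called lower, and their part in these differences was not tested.

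**Figure D3:**
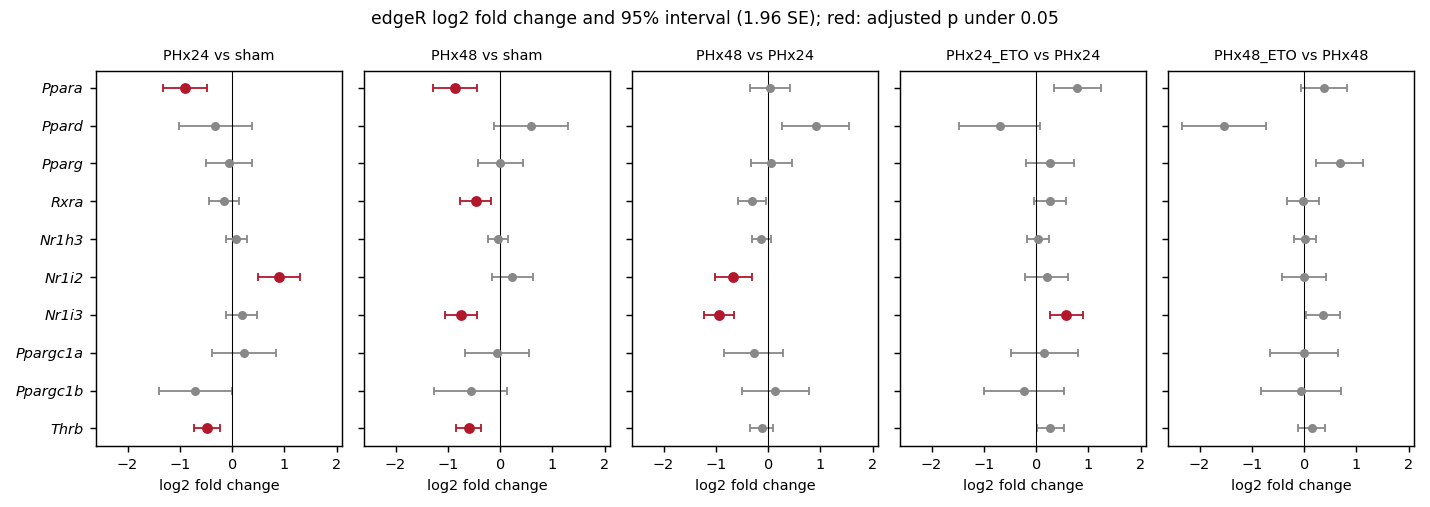
edgeR log2 fold change (horizontal axes) of the 10 genes in the 5 comparisons, with 95% intervals, red where the adjusted p is under 0.05. Ppargc1b is from the filter of 10 counts. Against sham, Ppara stands at -0.91 at 24 h and -0.87 at 48 h, and Nr1i2 at 0.90 at 24 h only, while Ppard at -1.54 with etomoxir at 48 h is grey.

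Thrb, which encodes the thyroid hormone receptor TRβ (gene ENSMUSG00000021779, chr14:17660261-18038090, plus strand), was lower at both times after resection. The sham livers held 3.98, 3.88, 4.53, 4.25 and 6.1 FPKM, the PHx24 livers 2.67 to 3.84 FPKM (median 3.36) and the PHx48 livers 2.55 to 3.24 FPKM (median 3.07). Neither resected group overlapped sham, which held for 17.7% of all tested genes at 24 h and 19.9% at 48 h. The level was 0.715 times that of sham at 24 h (log2 fold change -0.48, SE 0.123; edgeR adjusted p = 0.00332) and 0.66 times at 48 h (log2 fold change -0.60, SE 0.123; edgeR adjusted p = 0.000408). In TPM these were -0.24 (adjusted p = 0.121) and -0.21 (adjusted p = 0.158). Etomoxir livers held 3.31, 5.14, 3.57 and 3.62 FPKM at 24 h and 3.47, 3.27, 2.52 and 3.9 FPKM at 48 h, overlapping PHx24 and PHx48 livers, and neither difference was called. Across the 27 libraries Thrb and Ppara had a Pearson r of 0.80 on log2(FPKM + 1), and 0.63 after group means were removed. Sham 5 and PHx24_ETO 2 held the highest values of their groups for both genes, and their part in this r was not tested.

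The PGC1 coactivators were low and not called. Ppargc1a, induced in liver by fasting (gene ENSMUSG00000029167, chr5:51454250-51567726, minus strand), held 1.97, 1.42, 0.944 and 1.43 FPKM in PHx24_ETO livers against 0.699 to 2.49 FPKM in PHx24 livers. The sham livers held 2.14, 0.942, 0.823, 0.807 and 0.729 FPKM, the PHx24 livers had a median of 1.01 and the PHx48 livers 0.771 to 1.42 FPKM. The highest sham value is that of sham 1, the library with 4530 FPKM of skeletal muscle markers, and the part of those transcripts in its Ppargc1a level was not tested. PHx24 1 held 1.56 FPKM of Ppargc1a with 1757 FPKM of muscle markers, and PHx48 3 held 0.951 FPKM with 534 FPKM of them. PHx24 2 held the most Ppargc1a of all libraries, 2.49 FPKM, with 0.838 FPKM of muscle markers. Without sham 1 the log2 fold change at 24 h against sham was 0.63, against 0.22 with it (edgeR adjusted p = 0.105 and 0.622). Ppargc1b (gene ENSMUSG00000033871) ranged from 0.17 to 0.841 FPKM in PHx24_ETO, 0.238 to 0.972 in PHx24, 0.292 to 0.845 in PHx48_ETO, 0.446 to 0.715 in PHx48 and 0.387 to 1.17 in sham livers, on 10 to 68 counts per library. Its adjusted p at 24 h against sham, 0.137, was the smallest of its 5 comparisons, with 1 of 7 PHx24 livers above the sham median. Under its filter 30.3%, 31.9%, 9.17%, 2.39% and 0.141% of genes were called at 24 h and at 48 h against sham, at 48 h against 24 h and with etomoxir at 24 h and at 48 h.

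Target genes of these factors were read from lists drawn up with earlier results of these data known. Their counts are to be read against the shares of all genes called in the same comparison, and no list was tested as a set. Against sham those shares were 19.1% higher and 15.8% lower at 24 h and 19.5% higher and 17.0% lower at 48 h. At 48 h against 24 h they were 6.19% higher and 5.41% lower. With etomoxir they were 1.58% higher and 1.33% lower at 24 h and 0.129% higher and 0.0808% lower at 48 h. All of these are shares called by edgeR. Shares of all genes called in TPM are not given here, and TPM moved the median gene by 0.19 and 0.32 against sham. The TPM counts of the lists below can therefore not be read against the edgeR shares. List counts of 3 or fewer moved by at most 2 when any 1 library was left out, other than those named below. A fit on only the groups compared called 0 genes with etomoxir at 24 h. The list calls with etomoxir at 24 h given below were thus all lost in that fit. Members of the Cyp4a, Cyp3a, Gstm and Acot families resemble each other closely, so reads can be split between them and their values are uncertain.

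The 28 PPARA targets split in both directions after resection. At 24 h 4 were higher and 6 lower than in sham livers (all genes: 19.1% and 15.8%), and at 48 h 6 higher and 10 lower (all genes: 19.5% and 17.0%), while in TPM 9 were higher and 4 lower at 24 h and 9 higher and 5 lower at 48 h. Fabp1, the liver fatty acid binding protein, fell to 3195 ± 817 FPKM in PHx24 livers (n = 7), against 7663 ± 2700 FPKM in sham (n = 5; log2 fold change -1.23, edgeR adjusted p = 4.74e-05). Cyp4a14, a fatty acid omega-hydroxylase, rose to 233 ± 157 FPKM in PHx24 livers, against 14.7 ± 19.2 FPKM in sham (log2 fold change 4.04, edgeR adjusted p = 8.14e-05). Acsl1, a long-chain acyl-CoA synthetase, stood at 40.5 ± 12.4 FPKM in PHx48 livers and 92.9 ± 30.1 FPKM in sham (log2 fold change -1.18, edgeR adjusted p = 0.000284). At 48 h against 24 h 2 targets were higher and 3 lower (5 without PHx24 7, 6 without PHx24_ETO 2). Without the 4 libraries with other tissues 3 targets were higher and 10 lower at 48 h against sham.

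With etomoxir the called PPARA targets were higher at both times. At 24 h 5 of 28 were higher and 0 lower (all genes: 1.58% and 1.33%), with a median log2 fold change of 0.55 (0.01 over all genes). They included Angptl4, a secreted lipoprotein lipase inhibitor, at 66.2 ± 26.7 FPKM in PHx24_ETO livers (n = 4) and 21.1 ± 8.12 FPKM in PHx24 livers (n = 7; log2 fold change 1.63, edgeR adjusted p = 0.0166). Acadl, a long-chain acyl-CoA dehydrogenase, stood at 153 ± 21.9 FPKM in PHx24_ETO livers and 105 ± 13.2 FPKM in PHx24 livers (edgeR adjusted p = 0.0117). At 48 h 8 of 28 were higher and 0 lower (all genes: 0.129% and 0.0808%), with a median of 0.66 (-0.01 over all genes). Vnn1, a pantetheinase, stood at 27.8 ± 3.43 FPKM in PHx48_ETO livers and 11.1 ± 1.81 FPKM in PHx48 livers (log2 fold change 1.32, edgeR adjusted p = 0.0302). Hadhb, a subunit of the mitochondrial trifunctional protein, stood at 36.8 ± 5 FPKM in PHx48_ETO livers and 24.7 ± 0.477 FPKM in PHx48 livers (edgeR adjusted p = 0.0302).

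These counts rest on single libraries. The count at 24 h was 0 without PHx24_ETO 2, 8 without PHx24 5 and 10 without PHx24_ETO 1. The count at 48 h was 0 to 5 without any single PHx48 or PHx48_ETO library, and 12 without PHx24_ETO 2. The effect at 48 h minus that at 24 h was called for 0 of the 28 targets.

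Of the 8 PPARG targets, 0 were called higher and 1 lower at 24 h against sham, the lipid droplet gene Cidea (all genes: 19.1% and 15.8%), and 0 in either direction at 48 h against sham (all genes: 36.5%). Adipocyte markers, which share Adipoq with this list, summed to 3.82 to 188 FPKM in sham, 0.599 to 63.4 in PHx24 and 1.82 to 128 FPKM in PHx48 livers. Their part was not tested. Without PHx48 3, the library with 128 FPKM, 4 targets were lower at 48 h against sham. Plin4, a lipid droplet coat protein, was the only target called with etomoxir, at 18.6 ± 30.4 FPKM in PHx24_ETO livers and 2.35 ± 1.85 FPKM in PHx24 livers (log2 fold change 2.95, edgeR adjusted p = 0.03), and without PHx24_ETO 2 the count was 0. Mogat1, a monoacylglycerol acyltransferase, was higher at 48 h than at 24 h (log2 fold change 1.71, edgeR adjusted p = 0.0458). Without the 4 libraries with other tissues, 0 targets were lower at 24 h against sham. In that fit 0 were higher and 1 lower at 48 h against 24 h, so neither the Cidea nor the Mogat1 call held.

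Of 11 LXR targets, 5 were lower and 0 higher at 24 h than in sham livers, where 15.8% of all genes were lower and 19.1% higher. Scd1, the stearoyl-CoA desaturase, was among them (log2 fold change -1.99, SE 0.401; edgeR adjusted p = 0.000383). Lpcat3, a phospholipid acyltransferase, stood at 17.6 ± 2.99 FPKM in PHx24 livers (n = 7) and 29.2 ± 4.21 FPKM in sham livers (n = 5; log2 fold change -0.71, edgeR adjusted p = 0.00315). The count was 3 without sham 1, PHx24 2, PHx24 3 or PHx24 6, and 2 in TPM and without the 4 libraries with other tissues. At 48 h against sham 2 were higher and 1 lower (4 and 0 in TPM), and against 24 h 3 were higher and 0 lower (all genes: 6.19% and 5.41%). Fasn, the fatty acid synthase, was among those 3 at 70.5 ± 33.6 FPKM in PHx48 livers and 23.8 ± 5.69 FPKM in PHx24 livers (log2 fold change 1.56, edgeR adjusted p = 0.000415). The 3 were 5 without PHx24 7 or PHx24_ETO 2. With etomoxir 2 targets were lower at 24 h and 1 at 48 h, with 0 higher (all genes: 1.33% and 0.0808% lower), and these counts were 0 without PHx24_ETO 3 or PHx24_ETO 4 at 24 h and without most single PHx48 or PHx48_ETO libraries at 48 h. Srebf1, the lipogenic transcription factor, fell to 16.7 ± 5.24 FPKM in PHx24_ETO livers, against 44.9 ± 21.7 FPKM in PHx24 livers (log2 fold change -1.44, edgeR adjusted p = 0.0208). Scd1 fell to 146 ± 85.8 FPKM in PHx48_ETO livers, against 754 ± 326 FPKM in PHx48 livers (log2 fold change -2.37, edgeR adjusted p = 0.0302).

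Of 17 CAR and PXR targets tested, 10 were higher and 1 lower at 24 h than in sham livers, and 8 higher and 3 lower at 48 h, where 19.1% and 19.5% of all genes were higher. Por, the electron donor of cytochrome P450 enzymes, rose to 128 ± 25.9 FPKM in PHx24 livers (n = 7), against 36.3 ± 5.36 FPKM in sham (n = 5; log2 fold change 1.84, edgeR adjusted p = 2.28e-07). Alas1, the first enzyme of haem synthesis, rose to 92.1 ± 25.2 FPKM in PHx24 livers, against 28.7 ± 9.06 FPKM in sham (edgeR adjusted p = 6.45e-06). The count at 24 h was 6 without sham 3. Between 48 h and 24 h, where Nr1i2 and Nr1i3 were both lower, 5 targets were lower and 0 higher (all genes: 5.41% and 6.19%), Por among them (log2 fold change -0.94, edgeR adjusted p = 0.000578).

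With etomoxir at 24 h, where the call of Nr1i3 as higher sat at the threshold, 5 CAR and PXR targets were lower and 1 higher (all genes: 1.33% and 1.58%). Cyp3a11, the main drug-metabolising P450 of mouse liver, stood at 339 ± 150 FPKM in PHx24_ETO livers (n = 4) and 1106 ± 170 FPKM in PHx24 livers (n = 7; log2 fold change -1.72, edgeR adjusted p = 0.000523). Gstm3, a glutathione transferase, stood at 107 ± 75.7 FPKM in PHx24_ETO livers and 1218 ± 642 FPKM in PHx24 livers (log2 fold change -3.53, edgeR adjusted p = 0.00165). The count of lower targets was 3 without PHx24_ETO 3 and 0 in the fit on only the groups compared. At 48 h 0 targets were called in either direction, and the effect at 48 h minus that at 24 h was called higher for 1 target, Cyp3a11 (4 targets without PHx24_ETO 1).

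**Figure D4:**
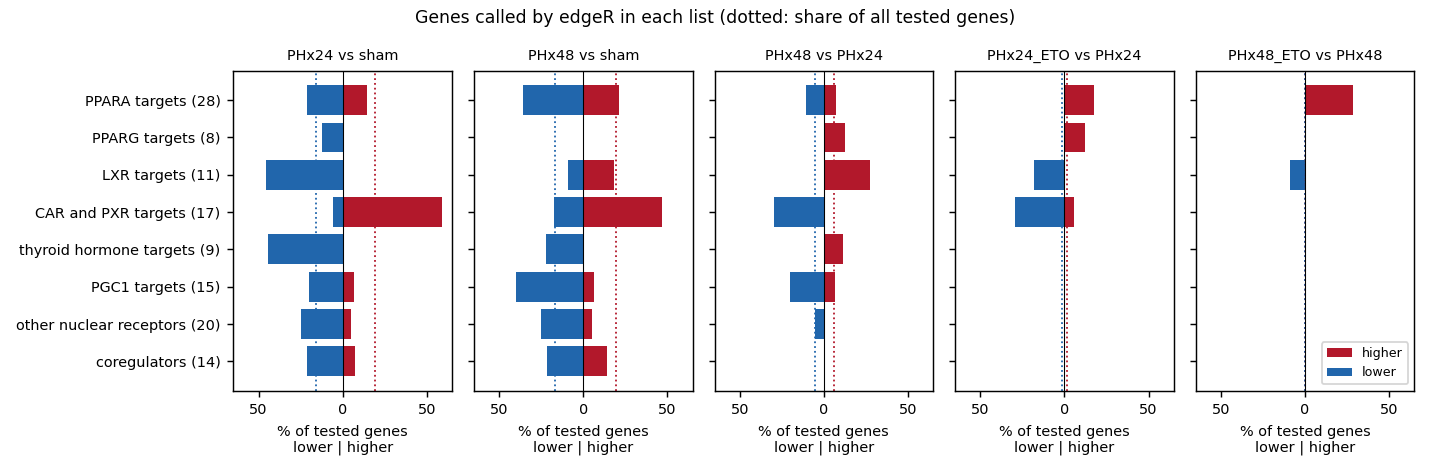
Share of the tested genes of each list (vertical axis, number tested in brackets) called higher (red, right) or lower (blue, left) by edgeR in the 5 comparisons, in % (horizontal axes), with the share of all tested genes as dotted lines. CAR and PXR targets reach 10 of 17 higher at 24 h against sham, and PPARA targets 8 of 28 higher with etomoxir at 48 h, counts that fall to 6 and to 0 without single libraries.

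Thyroid hormone targets were lower where they were called against sham, 4 of 9 at 24 h and 2 of 9 at 48 h, with 0 higher (all genes: 15.8% and 17.0% lower). In TPM 2 were higher and 4 lower at 24 h, and 3 higher and 2 lower at 48 h. Dio1, the deiodinase that thyroid hormone induces in liver, stood at 23.5 ± 8.1 FPKM in PHx48 livers (n = 7) and 86.2 ± 21.1 FPKM in sham livers (n = 5; log2 fold change -1.86, edgeR adjusted p = 0.000255). Klf9, an early thyroid hormone target, stood at 14.2 ± 3.78 FPKM in PHx24 livers and 27.2 ± 5.93 FPKM in sham livers (log2 fold change -0.92, edgeR adjusted p = 0.000309). Thrsp, a lipogenic gene, was higher at 48 h than at 24 h (log2 fold change 1.48, edgeR adjusted p = 0.0227). With etomoxir 0 of 9 were called at either time.

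Of 15 PGC1 targets, 1 was higher and 3 lower at 24 h (all genes: 19.1% and 15.8%) and 1 higher and 6 lower at 48 h against sham (all genes: 19.5% and 17.0%), while in TPM 4 were higher and 2 lower at 24 h and 5 higher and 0 lower at 48 h. Sdhb, a subunit of respiratory complex II, stood at 75.9 ± 6.61 FPKM in PHx24 livers and 113 ± 22.2 FPKM in sham livers (log2 fold change -0.56, edgeR adjusted p = 0.000269). Pck1, the gluconeogenic enzyme, was lower at 48 h than at 24 h (log2 fold change -1.29, edgeR adjusted p = 0.00875). With etomoxir 0 of 15 were called at either time.

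Of 20 other nuclear receptors tested, 1 was higher and 5 lower than in sham livers at each time, where 35.0% of all genes were called at 24 h and 36.5% at 48 h. In TPM 3 were higher and 2 lower at 24 h and 5 higher and 0 lower at 48 h. Nr3c1, the glucocorticoid receptor, stood at 7.57 ± 0.904 FPKM in PHx24 livers and 10.4 ± 0.507 FPKM in sham livers (edgeR adjusted p = 0.000587). Nr1h4, the bile acid receptor FXR, stood at 32.7 ± 5.92 FPKM in PHx48 livers and 56.4 ± 12.6 FPKM in sham livers (log2 fold change -0.76, edgeR adjusted p = 0.00364). Thra, the other thyroid hormone receptor gene, stood at 3.05 ± 0.54 FPKM in PHx48 livers and 5.5 ± 1.17 FPKM in sham livers (log2 fold change -0.84, edgeR adjusted p = 0.000909). Esr1, the oestrogen receptor, was the higher gene at 24 h (log2 fold change 0.86, edgeR adjusted p = 0.000518). Among 14 coregulators, 1 was higher and 3 lower at 24 h and 2 higher and 3 lower at 48 h against sham (all genes called: 35.0% and 36.5%), and in TPM 2 higher and 2 lower at 24 h and 6 higher and 0 lower at 48 h. Pprc1, a relative of the PGC1 coactivators, stood at 4.44 ± 0.69 FPKM in PHx24 livers and 2.32 ± 0.493 FPKM in sham livers (log2 fold change 0.95, edgeR adjusted p = 3.19e-05). Sirt1, a deacetylase that acts on PGC1α, stood at 1.69 ± 0.313 FPKM in PHx24 livers and 2.71 ± 0.103 FPKM in sham livers (edgeR adjusted p = 9.32e-05). With etomoxir 0 genes of either list were called at 24 h or 48 h.

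The genes most like each member over the 27 libraries were found by Pearson r of log2(FPKM + 1), which describes libraries that share groups and scaling. Nr1i2 was closest to Slc20a1 (r = 0.933, and 0.913 with group means removed), a phosphate transporter that held 8.93 ± 2.73 FPKM in PHx24 livers and 3.55 ± 1.31 FPKM in sham livers. In PHx24_ETO livers Slc20a1 ranged from 6.51 to 35.2 FPKM (median 9.91), and Nr1i2 stood apart at 104 FPKM in PHx24_ETO 2. The part of single libraries in this r was not tested. Thrb and Ppara had the same closest gene, Dennd4a (r = 0.904 and 0.828), and Nr1i3 was closest to the imprinted gene Peg3 (r = 0.902, and 0.664 with group means removed). Rxra was closest to Ptk2b (0.888), Nr1h3 to Mrpl38 (0.826), Ppard to Ppfia1 (0.750), Ppargc1b to Slc22a4 (0.764) and Ppargc1a to Zfp672 (0.673). Pparg had the lowest values, 0.627 for Abcd2, a peroxisomal fatty acid transporter, and 0.585 for Mogat1. The second closest gene of Ppard was the clock gene Npas2 (r = 0.712), at 0.876 to 1.65 FPKM in PHx48_ETO livers and 1.23 to 2.93 FPKM in PHx48 livers.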

How the data were processed

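Polyadenylated RNA, extracted with TRIzol, was made into NEBNext Ultra libraries, per the labels' protocols. Per the submitters' processing notes, the tools were featureCounts 1.5.0-p3, HISAT2 2.0.5, fastp, CASAVA 1.8 and DESeq2 1.20.0 and the builds GRCm38 and mm10. What each tool did, its annotation and its strand setting were not given in the sources used here. Per gene, the deposited table holds raw read counts and FPKM made by the authors. Tested on counts of at least 50, FPKM equalled the count over gene length and over a library size that followed the median-of-ratios size factors (largest relative spread 1.1e-08).

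edgeR 4.0.16 (R 4.3.3) was fitted to the raw counts of the 12376 genes that reached an FPKM of 1 in 4 or more libraries, with a mean for each of the 5 groups, TMM factors, the quasi-likelihood F test and Benjamini-Hochberg adjustment over these genes. Ppargc1b is from the 15626 genes with 10 or more counts in 4 or more libraries. The biological coefficient of variation was 0.266. Alternatives used DESeq2 1.42.0 (test or size factors), limma 3.58.1 on log2 of the deposited FPKM plus 1 or 0.1, TPM computed from counts and gene lengths, other filters, fewer samples and a replicate block. The fit was tested on simulated data. The 95% intervals are normal intervals from the SE. All 10 members had the same coordinates in GENCODE M21. RefSeq promoter windows were found for 9 members.

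Members, lists and tests were chosen with earlier results of these data known. Named are all members, at most the 3 genes of a list with the smallest adjusted p in a comparison, and the 2 most alike genes by Pearson r.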

Additional observations from a re-analysis of the deposited data

Results flagged for a closer look

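In 4 of 50 groups of a member's FPKM values, the highest library stood apart from the rest of its group by more than Dixon's 95% limit, which chance gives in about 1 in 20 groups. Ppara stood at 28.7 FPKM in sham 5, against 13.5 to 14.8 FPKM in the other sham libraries. Without sham 5 the log2 fold changes of Ppara against sham were the smallest of the leave-outs, -0.68 at 24 h and -0.65 at 48 h, and both stayed called. Nr1i2 stood at 104 FPKM in PHx24_ETO 2, against 41.8 to 51.6 FPKM in the other PHx24_ETO libraries. The same library held 5.14 FPKM of Thrb, against 3.31 to 3.62 FPKM in the others. Ppargc1a stood at 2.14 FPKM in sham 1, the library with 4530 FPKM of skeletal muscle markers, against 0.729 to 0.942 FPKM in the other sham libraries.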

How the results depend on the processing

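The 16 member differences with an unadjusted p under 0.05 were recomputed under 10 alternatives and with each of 27 libraries left out. None changed sign, 549 values kept their side of the threshold, 12 passed it and 31 no longer did. Of the 44 other differences 25 changed sign under at least 1 alternative and 4 were called under 1, in each case TPM. In TPM 2 members were higher and 1 lower at 24 h against sham, 3 higher (Ppard 0.84, Nr1h3 0.31, Nr1i2 0.60) and 0 lower at 48 h against sham, 1 lower at 48 h against 24 h, and 0 higher with etomoxir at 24 h. Shares of all genes called in TPM are not given for these comparisons, so the TPM member counts have no share to be read against. DESeq2 called 1 member higher at 48 h against 24 h, 2 higher with etomoxir at 24 h and 1 lower with etomoxir at 48 h. For etomoxir at 24 h, limma on log2(FPKM + 0.1) called 2 members higher, and the fit on only the groups compared and the fit with no filter called 0. Genes called with etomoxir at 24 h numbered 359, against 764 with DESeq2, 0 with only the groups compared and 196 with no filter. With etomoxir at 48 h they numbered 26, against 71 with DESeq2 and 11 with no filter. For the difference of the etomoxir effects they numbered 2, against 43 with DESeq2 and 1 in TPM. The cause of these differences was not tested. Nr1h3 reversed in TPM at 48 h against sham.

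With 1 library left out, genes called numbered 138 (without PHx24_ETO 2) to 1199 (without PHx24_ETO 1) with etomoxir at 24 h, and moved by over 1.5 times also without PHx24 3, PHx24 4 and PHx24_ETO 3. With etomoxir at 48 h they numbered 1 (without PHx48_ETO 3) to 47 (without PHx24_ETO 2), and moved by that much also without PHx48 1, 3, 5, 6 or 7 and PHx48_ETO 1, 2 or 4. For the difference of effects they numbered 0 (without PHx24_ETO 4) to 239 (without PHx24_ETO 1). Members higher with etomoxir at 24 h numbered 0 to 2, members higher at 48 h against 24 h 0 to 1, and members lower with etomoxir at 48 h 0 to 1.

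For libraries of the same replicate number, the correlation of their deviations was over 0.1 in 12 of 45 pairs (-0.232 to 0.655). Pairs of different number were not compared, so whether libraries of the same number pair is not known. With the number as a replicate block, 0 members were called higher with etomoxir at 24 h (Nr1i3 0.64, edgeR adjusted p = 0.0656) and 44 genes were called with etomoxir at 48 h. Etomoxir groups of 4 libraries limit the precision: the 95% interval of Ppard at 48 h ran from -2.34 to -0.74.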
